A study of Mus musculus with 20 samples.

Results

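Erythroid transcription factors are the DNA-binding proteins and cofactors that commit a blood progenitor to the red cell lineage. The 10 genes described here, Gata1, Klf1, Tal1, Nfe2, Gfi1b, Bcl11a, Lmo2, Zfpm1, Ldb1 and Myb, were taken by gene symbol from the raw count tables of bone marrow and kidney. Each symbol matched 1 line among 55486 genes in both tables, and the rule holds no threshold on a measured value. The mice were C57BL/6, 10 weeks old at the start, with no genetic alteration named, and the study's methods name both sexes. The treated group received 10 mg/kg oxaliplatin, a platinum drug used in chemotherapy, by intraperitoneal injection for 8 weeks in 5% dextrose, and the control group received the 5% dextrose vehicle alone. Marrow from tibia and femur and whole kidney were each sequenced as bulk RNA from 5 libraries per treatment, described by the submitters as biological replicates. The labels do not say which marrow and kidney libraries came from the same animal.

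GATA1 binds DNA together with its cofactor FOG1, encoded by Zfpm1, and switches on most genes of the maturing red cell, among them Klf1. TAL1, LMO2 and LDB1 form a complex that sits with GATA1 at erythroid enhancers, while KLF1 binds CACC boxes at the adult beta globin gene. MYB keeps early progenitors dividing, BCL11A represses embryonic globin genes, GFI1B represses genes of other lineages, and NFE2 acts at globin enhancers and in platelet formation. Several of these genes are also used outside the red cell lineage, GATA1 in megakaryocytes, mast cells and eosinophils, BCL11A in B cells and plasmacytoid dendritic cells, and TAL1 and LMO2 in endothelium.

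Total counts per library ranged from 30660153 to 41140527 in marrow and from 24393007 to 30925430 in kidney, so that 3 reads corresponded to 0.0668 to 0.0975 CPM, the read count scaled to a common library total with TMM factors, in marrow. No 2 libraries of the same tissue and treatment agreed within sampling noise. Globins and other late erythroid genes were present in the marrow of every mouse, while kidney-defining genes were nearly absent from it, with a summed level of 10.4 CPM in vehicle marrow against 19326 CPM in vehicle kidney. Reads of 4 Y-linked genes were abundant in all 20 libraries, with sums between 102 and 177 CPM in marrow and between 75.5 and 120 CPM in kidney, which goes against any of these libraries coming from a female mouse.

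In marrow, 7 of the 10 factors were lower after oxaliplatin and none was higher, where a gene was counted as changed at a Benjamini-Hochberg adjusted p below 0.05 in edgeR's quasi-likelihood test and a fold beyond 1.5. Klf1 fell furthest, to 31.8% of the vehicle level, and Lmo2, Zfpm1, Myb, Gfi1b, Bcl11a and Tal1 followed. DESeq2, run as an alternative, gave 6 of the 10, without Tal1, against 25.1% of all genes it tested. Nfe2 and Ldb1 were also lower with adjusted p below 0.05 but by less than 1.5-fold, and Gata1 did not pass the test. Among all 22363 genes tested in marrow 23.3% changed, 11.8% being lower and 11.6% higher. Over the 10 factors the median log2 fold change was -0.72, beside -0.04 over all tested genes. The lowest vehicle mouse lay above the highest treated mouse for 7 factors (Klf1, Nfe2, Bcl11a, Lmo2, Zfpm1, Ldb1 and Myb), a separation found in either direction for 24.9% of all tested genes. In bulk marrow, fewer cells that express a gene and less of its RNA per cell cannot be told apart.

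**Figure D1:**
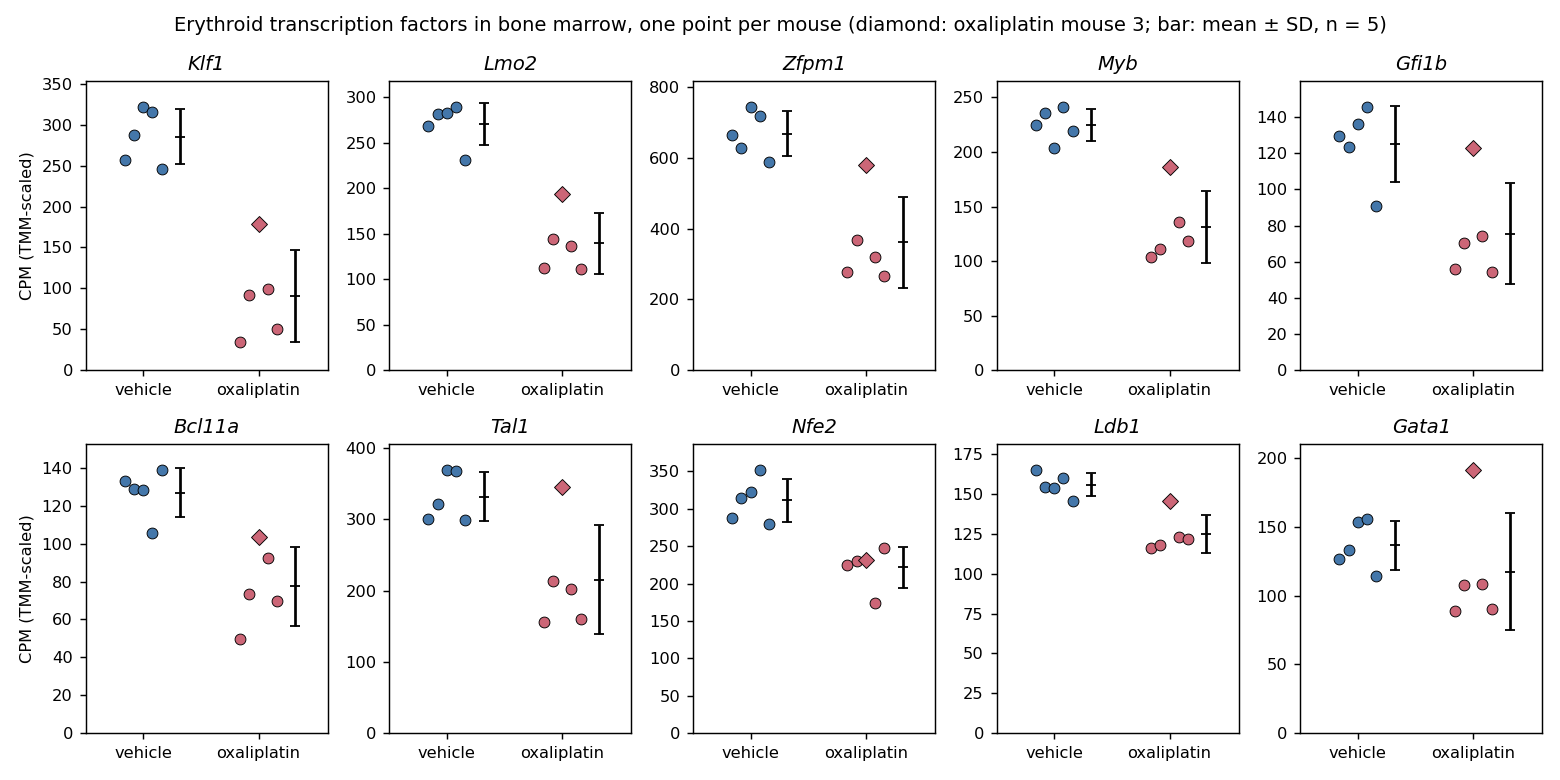
Level of each factor in bone marrow in CPM (vertical axis, starting at 0), with 1 point per mouse, vehicle in blue and oxaliplatin in red, and the mean ± SD of 5 mice beside each group. The diamond is oxaliplatin mouse 3, which was the highest treated mouse for 9 of the 10 factors, and for Gata1 it lay above all vehicle mice.

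Gata1 (ENSMUSG00000031162, X:7959260-7978071, minus strand, GRCm38) encodes the factor that binds DNA together with FOG1. Its level in the vehicle mice was 127, 133, 153, 156 and 114 CPM, and in the oxaliplatin mice 88.5, 108, 191, 108 and 90.2 CPM, in the order of the mouse numbers. Treated mice 1, 2, 4 and 5 lay below every vehicle mouse and treated mouse 3 lay above every one. The means were 137 ± 17.7 and 117 ± 42.5 CPM (SD, n = 5 each), a log2 fold change of -0.22 (SE 0.193, edgeR adjusted p = 0.425). Without treated mouse 3 the log2 fold change was -0.47 (edgeR adjusted p = 0.00355), still short of a 1.5-fold change. Leaving out any other mouse gave -0.28 to -0.09 (edgeR adjusted p from 0.363 to 0.770).

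Zfpm1 (ENSMUSG00000049577, 8:122282141-122337251, plus strand) encodes FOG1, the cofactor that GATA1 needs in erythroid and megakaryocytic cells. The vehicle mice had 664, 628, 743, 719 and 587 CPM and the treated mice 277, 367, 581, 321 and 265 CPM. Treated mouse 3 reached just below the lowest vehicle mouse, and the other treated mice were far below. The log2 fold change was -0.88 (SE 0.192, edgeR adjusted p = 0.00311). Another annotated gene lies on the same strand over Zfpm1, so its reads are not certain to be from Zfpm1 alone.

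Klf1 (ENSMUSG00000054191, 8:84901928-84905291, plus strand) encodes the erythroid Kruppel-like factor that activates adult beta globin, heme and membrane genes. Vehicle mice had 257, 288, 321, 316 and 246 CPM, a coefficient of variation of 11.8%. Treated mice had 34.3, 91.9, 178, 99.2 and 50.2 CPM, a coefficient of variation of 61.7%. The groups did not overlap, and within the treated group the highest and the lowest mouse were mice 3 and 1. The means were 285 ± 33.8 and 90.8 ± 56.1 CPM (SD, n = 5), which is 3.14-fold lower (log2 fold change -1.65, SE 0.362, edgeR adjusted p = 0.00439).

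Of the core genes of the TAL1 complex, Tal1 and Lmo2 passed both thresholds and Ldb1 was lower by less than 1.5-fold. Tal1 (ENSMUSG00000028717, 4:115056426-115071755, plus strand), its basic helix-loop-helix DNA-binding subunit, measured 301, 322, 369, 369 and 299 CPM in the vehicle mice and 156, 213, 346, 202 and 160 CPM in the treated mice. Treated mouse 3 overlapped the vehicle range. The log2 fold change of Tal1 was -0.62 (SE 0.192, edgeR adjusted p = 0.0236), and leaving out vehicle mouse 3 or 4 or treated mouse 1, 2, 4 or 5 ended the call, at edgeR adjusted p values from 0.0505 to 0.0839. Lmo2 (ENSMUSG00000032698, 2:103957986-103981878, plus strand), the bridging subunit, measured 268, 281, 283, 289 and 231 CPM in the vehicle mice and 113, 145, 193, 136 and 111 CPM in the treated mice. The groups were separate, with a log2 fold change of -0.95 (SE 0.144, edgeR adjusted p = 2.2e-04), and Lmo2 passed both thresholds in all 20 alternative analyses. Ldb1 (ENSMUSG00000025223, 19:46031570-46045214, minus strand), which brings enhancers and promoters together, measured 165, 155, 154, 160 and 146 CPM in the vehicle mice and 116, 118, 146, 123 and 122 CPM in the treated mice. Here the separation was small, and the log2 fold change of -0.32 (SE 0.085, edgeR adjusted p = 0.0107) had an adjusted p of 0.0604 without treated mouse 5. Lmo2 and Ldb1 each overlap a gene on the opposite strand, and whether the counting used strand is not given in the sources used here.

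Nfe2 (ENSMUSG00000058794, 15:103248212-103258403, minus strand) encodes the large subunit of NF-E2. The vehicle mice had 288, 314, 323, 352 and 279 CPM and the treated mice 224, 230, 232, 174 and 248 CPM. Every treated mouse lay below every vehicle mouse, and the spread among treated mice (SD 27.8 CPM) was similar in size to that among vehicle mice (SD 28.9 CPM). The log2 fold change was -0.49 (SE 0.109, edgeR adjusted p = 0.00371), short of 1.5-fold. Mafk, which encodes a small MAF partner of NFE2, fell from 81.3 to 38.3 CPM (log2 fold change -1.09, edgeR adjusted p = 3.09e-06), whereas another small MAF gene, Mafg, measured 188 and 180 CPM (edgeR adjusted p = 0.611).

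Gfi1b (ENSMUSG00000026815, 2:28609450-28621982, minus strand), a zinc finger repressor of the erythroid and megakaryocytic lineages, measured 130, 123, 136, 145 and 90.8 CPM in the vehicle mice. In the treated mice it measured 56.2, 70.2, 123, 74.3 and 54.2 CPM. Treated mouse 3 again overlapped the vehicle range, and vehicle mouse 5 was the lowest vehicle mouse. The log2 fold change was -0.73 (SE 0.211, edgeR adjusted p = 0.0184), and without treated mouse 5 it was -0.58 (edgeR adjusted p = 0.0589). Its paralog Gfi1, which acts in granulocytic and lymphoid cells, measured 58.7 and 65.1 CPM (log2 fold change 0.15, edgeR adjusted p = 0.220).

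Myb (ENSMUSG00000019982, 10:21124935-21160984, minus strand), the progenitor factor, measured 224, 236, 203, 241 and 219 CPM in the vehicle mice and 104, 111, 186, 136 and 118 CPM in the treated mice. The groups did not overlap, and the log2 fold change was -0.78 (SE 0.144, edgeR adjusted p = 0.00103). Bcl11a (ENSMUSG00000000861, 11:24078056-24174123, plus strand) measured 133, 129, 129, 105 and 139 CPM in the vehicle mice and 49.7, 73.4, 103, 92.3 and 69.5 CPM in the treated mice. Its groups did not overlap either, by a narrow gap between treated mouse 3 and vehicle mouse 4. The log2 fold change of Bcl11a was -0.71 (SE 0.165, edgeR adjusted p = 0.00482), and without treated mouse 1 it was -0.58, just short of 1.5-fold. Reads of Myb and Bcl11a could include those of overlapping noncoding genes.

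Promoter stretches are shown for Gata1 and for Klf1, Gfi1b, Tal1 and Myb, whose levels relative to Gata1 changed with treatment. The ratios of Lmo2, Zfpm1 and Ldb1 to Gata1 were not tested. RefSeq promoter windows of GRCm38.p6, from 250 bases before to 50 bases after a transcription start, were found for 8 of the 10 factors with 11 start sites. A GATA motif was taken as AGATAA or TGATAA, with G also allowed as the last base, on either strand, and a CACC box as CCNCNCCC on either strand. Printed 5′ to 3′ along the gene's own strand are the bases from -160 to -61 relative to the start, with GATA and CACC matches in capitals. Gata1 is at chrX:7967971-7968070 (minus strand), Klf1 at chr8:84901822-84901921 (plus strand), Gfi1b at chr2:28622043-28622142 (minus strand), the first start of Tal1 at chr4:115056266-115056365 (plus strand) and Myb at chr10:21161045-21161144 (minus strand). All but the Gata1 stretch lie upstream of their genes, and the Gata1 stretch precedes a RefSeq start inside the gene as GENCODE draws it.
Gata1: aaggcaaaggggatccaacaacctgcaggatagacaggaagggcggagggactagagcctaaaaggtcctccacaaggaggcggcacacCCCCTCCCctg
Klf1: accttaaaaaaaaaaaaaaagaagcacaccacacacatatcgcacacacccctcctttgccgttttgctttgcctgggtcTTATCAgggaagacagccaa
Gfi1b: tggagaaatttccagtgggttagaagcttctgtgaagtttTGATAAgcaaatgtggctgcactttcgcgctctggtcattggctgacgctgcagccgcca
Tal1: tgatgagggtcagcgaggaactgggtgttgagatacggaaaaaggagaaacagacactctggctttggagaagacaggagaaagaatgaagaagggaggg
Myb: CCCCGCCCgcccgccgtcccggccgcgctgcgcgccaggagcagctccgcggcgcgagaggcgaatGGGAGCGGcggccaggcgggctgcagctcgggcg

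The Klf1 stretch holds 1 GATA match on its opposite strand, beginning at base -80, and the Gfi1b stretch holds 1 at base -120. The stretches of Gata1, Tal1 and Myb hold no GATA match, and those of Gata1 and Myb hold 1 and 2 CACC matches. Over the whole windows, GATA matches were found for Klf1, Gfi1b, the first start of Tal1 and the third start of Ldb1, and none was found in the windows of Gata1, Bcl11a, Zfpm1 and Myb. The Gata1 window held 3 CACC matches, that of Zfpm1 4, that of Myb 4 and that of Bcl11a 8. Of all 32851 RefSeq promoter windows of this length, 29.8% held a GATA match and 49.5% a CACC match. Overlapping CACC matches were counted separately, and a match here describes letters and not binding.

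The treated mice differed from each other in a shared way. Mouse 3 was the highest treated mouse for 9 of the 10 factors, with Nfe2 the exception, and mouse 1 was the lowest for 6. In mouse 3, Gata1 was 0.50 above the vehicle mean on the log2 scale, Tal1 was 0.07 above it, and Klf1 was 0.67 below it (log2 CPM difference -0.67). In mouse 1 the same differences were -0.62, -1.08 and -3.05. The mean log2 CPM of 21 late erythroid genes (globins, membrane skeleton and heme genes) did not follow that order, lying 2.22 below the vehicle mean in mouse 3 (difference -2.22), against differences of -2.11 in mouse 2 and -2.77 in mouse 4. Early erythroid and receptor genes, among them the erythropoietin receptor gene Epor, differed by -1.13 in mouse 3 and by -2.05 to -1.48 in the others.

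**Figure D2:**
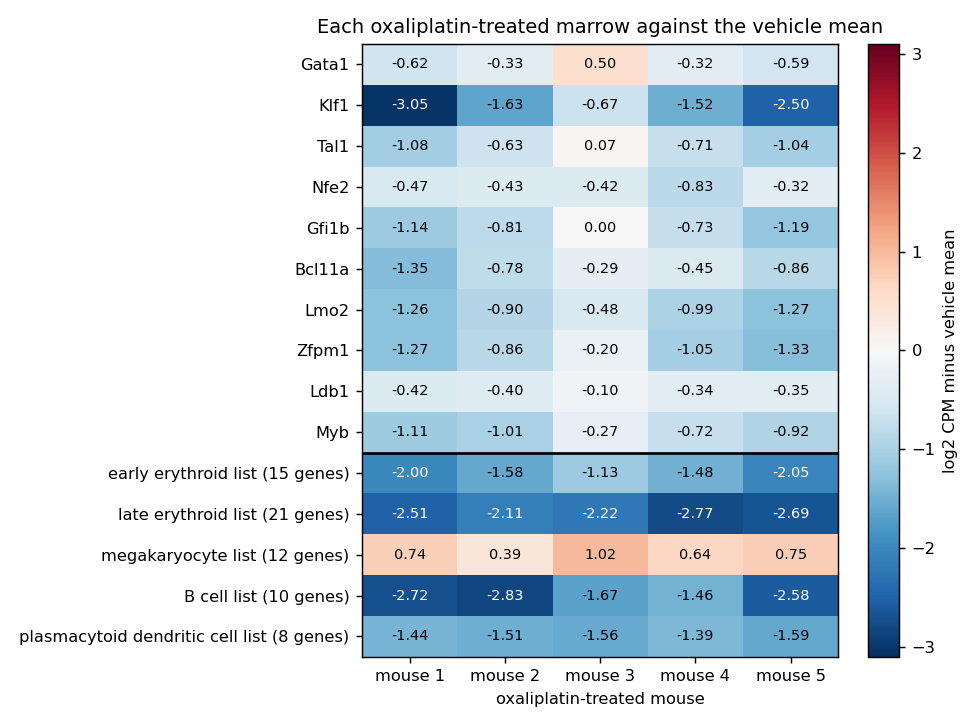
Difference of log2 CPM from the vehicle mean (colour and printed value, blue lower, red higher) for each of the 5 oxaliplatin-treated mice in columns, with the 10 factors above the line and the mean over 5 gene lists below it. Mouse 3 is the palest or the only red column for most factors, while the late erythroid list is between -2.77 and -2.11 in every mouse.

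After subtracting each group's mean, the 10 factors had a median pairwise Pearson r of 0.812 over 45 pairs and 10 mice, from -0.43 (Nfe2 with Bcl11a) to 0.984 (Gata1 with Tal1). This is a description, since the points share libraries and treated mouse 3 weighs on all of them. Nfe2 stood apart, with a median r of 0.137 to the other factors. Among 14649 genes compared in the same way, the closest to Gata1 were Cox7c (r = 0.993), Plk1 (0.991), Alyref (0.989), Chchd3 (0.988) and Uqcrc1 (0.987). Among the closest to Klf1 were Add2, a membrane skeleton gene (0.995), Noc2l (0.992), Hemgn, an erythroid nuclear protein gene (0.990), and Orc2 (0.990). The closest to Myb were Cd3eap (0.988), Gm9531 (0.979), Smarcb1 (0.979), Pop1 (0.978) and Mrps27 (0.970), and the closest to Bcl11a were Snhg4 (0.967), Ints2 (0.964), Cdk6 (0.948), Mms22l (0.940) and Polq (0.932).

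Ratios within a mouse do not depend on how libraries are scaled, and they changed between the groups. Klf1 was about 1 log2 unit above Gata1 in every vehicle mouse (1.02, 1.11, 1.07, 1.02 and 1.11) and below Gata1 in every treated mouse (-1.37, -0.23, -0.10, -0.13 and -0.84). The difference between the group means was -1.60, with p = 0.00794 in a two-sided exact permutation test over the 252 divisions of 10 mice, the smallest p this design allows, and 0.0136 after Benjamini-Hochberg adjustment over 12 such contrasts. Gfi1b relative to Gata1 moved from 0.03, -0.11, -0.17, -0.10 and -0.33 in the vehicle mice to -0.66, -0.62, -0.64, -0.55 and -0.74 in the treated mice, a difference of -0.50. Tal1 relative to Gata1 differed by -0.41 and Myb relative to Gata1 by -0.54, again with all 5 treated mice below all vehicle mice and the same exact permutation p. Mouse 3, high for the single factors, was not set apart in the Gfi1b and Tal1 ratios.

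Relative to its target genes Gata1 was higher after treatment. Gata1 minus the mean of the early erythroid list rose from -0.88 ± 0.0994 to 0.50 ± 0.184 (log2 units, SD, n = 5, exact permutation p = 0.00794), and Gata1 minus the mean of the late erythroid list rose from -2.93 ± 0.0901 to -0.74 ± 0.387 with the same exact permutation p. Gata1 minus the mean of 12 megakaryocyte and platelet genes fell from 0.39 ± 0.159 to -0.59 ± 0.372, also at that p. Gfi1b minus Gfi1 differed by -0.92 (exact permutation p = 0.0159, adjusted 0.0238), with 4 of 5 treated mice below all vehicle mice. Gata1 against Gata2 (difference -0.37, exact permutation p = 0.111), against the myeloid factor gene Spi1 (-0.26, p = 0.460), Bcl11a against Gata1 (-0.48, p = 0.0556) and Nfe2 against Gata1 (-0.22, p = 0.397) did not pass. Without treated mouse 3, Gata1 minus Gata2 was -0.55 (exact permutation, adjusted p = 0.0212) and Gata1 minus Spi1 was -0.58 (adjusted p = 0.0476). Without vehicle mouse 4, Bcl11a minus Gata1 was -0.59 (exact permutation, adjusted p = 0.0357). For each of these ratios no other omission of a mouse led to a pass. Other omissions brought Gata1 minus Gata2 as near 0 as -0.29 and Gata1 minus Spi1 as near as -0.09. The adjusted exact permutation p reached 0.238 and 0.778 for these, and 0.148 for Bcl11a minus Gata1. With the difference of medians in place of means, no contrast passed, and the 8 that had passed then had an adjusted exact permutation p of 0.0714. Several divisions of the mice share the largest possible difference of medians, so this p cannot go as low as with means. After adjustment over 12 contrasts it could hardly pass, so this setting does not decide.

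**Figure D3:**
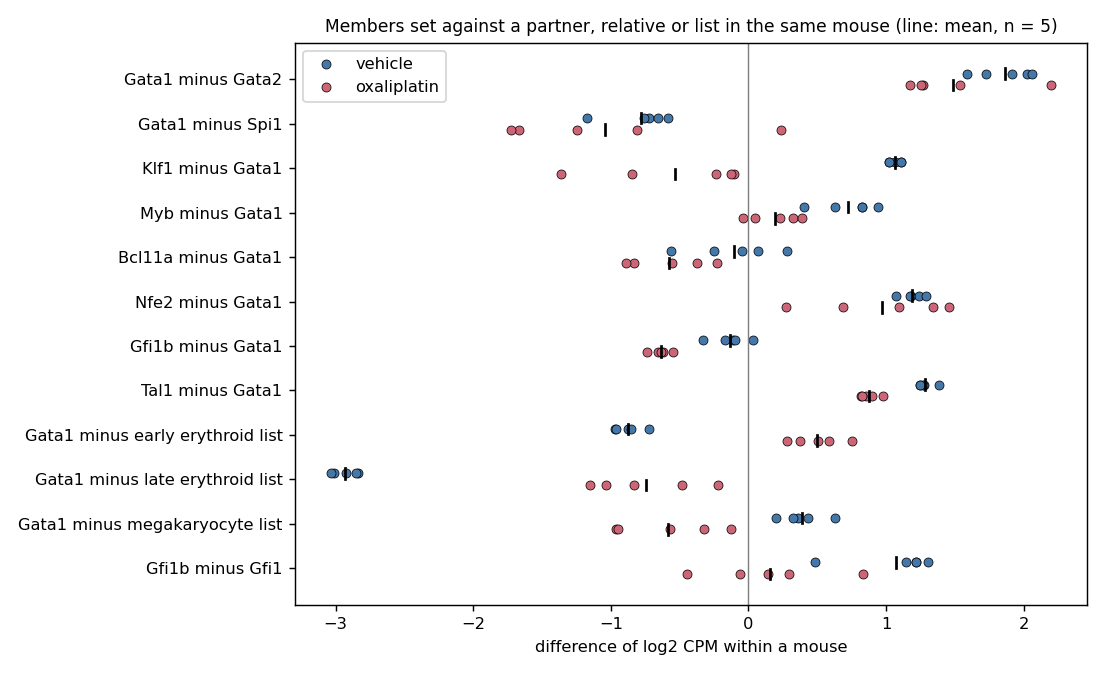
Difference of log2 CPM between a factor and a partner, relative or gene list within the same mouse (horizontal axis), with 1 point per mouse, vehicle in blue and oxaliplatin in red, and a black line at each mean of 5 mice. Klf1 minus Gata1 is at or above 1.02 in all vehicle mice and at or below -0.10 in all treated mice.

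The partners and relatives of these factors divided. Of 33 such regulators tested in marrow, 9 fell, 3 rose and 21 did not pass both thresholds, against shares of 11.8% lower and 11.6% higher (23.3% in all) among tested marrow genes, with a median log2 fold change of -0.18. Sox6, which encodes a repressor of embryonic globin that works with BCL11A, fell most, from 335 ± 30.4 to 47.8 ± 15.6 CPM (log2 fold change -2.81, SE 0.188, edgeR adjusted p = 4.04e-07). Its 5 treated mice lay between 34.9 and 73.9 CPM and its vehicle mice between 288 and 370 CPM. Foxo3, whose product acts with GATA1 in red cell maturation, fell from 582 to 239 CPM (log2 fold change -1.28), and Klf3, a KLF1-induced repressor gene, from 314 to 140 CPM (log2 fold change -1.17). Tcf3, a gene for a dimer partner of TAL1, fell from 311 to 162 CPM (-0.94), and Ssbp3, a gene for a partner of LDB1, from 140 to 72.7 CPM (-0.95). Ikzf1, Mybl1 and Mybl2 also fell, by log2 fold changes of -0.60, -0.62 and -0.74.

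Others in the same network did not fall past both thresholds. Gata2, which GATA1 replaces at shared sites as cells mature, measured 37.4 and 40.1 CPM (log2 fold change 0.10, edgeR adjusted p = 0.433). Runx1 (210 and 200 CPM), Spi1 (234 and 238 CPM), Bach1 (118 and 118 CPM), Cbfa2t3, a corepressor of the TAL1 complex (120 and 113 CPM), and Ssbp2 (26.6 and 22.4 CPM) did not pass the edgeR test, with adjusted p from 0.134 to 0.993. Lyl1, a TAL1 relative (log2 fold change -0.24, edgeR adjusted p = 0.0192), and Zbtb7a, a globin repressor gene (-0.45, edgeR adjusted p = 8.31e-04), were lower by less than 1.5-fold, and Fli1, a megakaryocytic factor gene opposed by KLF1, was higher by less than that (0.42, edgeR adjusted p = 0.00681). The 3 that rose were Cebpa, a granulocytic factor gene (98.3 to 227 CPM, log2 fold change 1.21), Zfpm2 (1.57 to 2.99 CPM) and Ldb2 (6.42 to 10.4 CPM), the last pair being relatives of Zfpm1 and Ldb1.

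The early and late erythroid gene lists, which hold known targets of these factors, had larger median falls than the factors. Among all tested marrow genes, 11.8% were lower and 11.6% higher by the same thresholds. All 21 late erythroid genes fell, with a median log2 fold change of -2.62, among them Bpgm (-3.29), Epb42 (-3.08) and Slc4a1 (-2.86). Of 15 early erythroid and receptor genes, 13 fell, Cited4 rose (log2 fold change 0.65) and Cd36 did not pass, with a median of -1.72 and falls in Aqp1 (-2.89), Kel (-2.68) and Ermap (-2.37) among others. Epor fell from 110 to 46.5 CPM (log2 fold change -1.24, edgeR adjusted p = 2.25e-05). No single factor fell as far as the median late erythroid gene.

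Markers of the other cells that use these factors moved as well. The counts that follow stand beside shares of 11.8% lower and 11.6% higher among all tested marrow genes. Of 12 megakaryocyte and platelet genes, 8 rose and none fell, led by Pf4 (log2 fold change 1.44), and their summed level was 2309 to 3574 CPM in vehicle and 3953 to 5708 CPM in treated marrow. Of 12 mast cell, basophil and eosinophil genes, 7 fell and 3 rose, their sum going from between 1828 and 2200 CPM to between 445 and 952 CPM. The 3 that rose, Tpsb2, Cma1 and Mcpt4, had at most 2 reads in any vehicle library and means below 3 CPM in treated marrow. The part of these cells in the Gata1 level was not tested. Of 10 B cell genes 8 fell, including Pax5 (log2 fold change -2.82), and of 8 plasmacytoid dendritic cell genes 6 fell, including Spib (-3.53), with sums of 383 to 656 against 127 to 198 CPM and 562 to 615 against 287 to 356 CPM. Their part in the Bcl11a level was not tested.

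Of 10 stem and progenitor genes, 4 rose and 1 fell, and their sum overlapped between vehicle (173 to 203 CPM) and treated marrow (165 to 196 CPM). Their mean log2 CPM did not overlap. It lay 0.26 to 0.49 above the vehicle mean in the treated mice, against -0.11 to 0.14 in the vehicle mice. Of 10 endothelial genes 6 rose, with sums of 365 to 457 CPM and 518 to 864 CPM, and their part in the Tal1 and Lmo2 levels was not tested. The shares among all tested marrow genes were 11.8% lower and 11.6% higher. Of 10 kidney genes, 3 passed the expression filter in marrow and only Slc12a3 changed (8.63 to 1.29 CPM).

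Levels were compared between genes after division by exonic length. This length joins all annotated exons of a gene (8933 bases for Myb and 13175 for Bcl11a). The order therefore depends on how much of that length is transcribed in these cells, which was not tested. In vehicle marrow Zfpm1 (163 ± 13.8 CPM per kb, SD, n = 5) and Klf1 (159 ± 16.8) were highest with overlapping ranges, followed without overlap by Lmo2 (106 ± 7.92) and Nfe2 (88.8 ± 6.86), which overlapped each other. Tal1 (64.7 ± 5.97), Gfi1b (58.3 ± 9.01) and Gata1 (47.8 ± 5.53) came next, each overlapping its neighbour. Ldb1 (28.9 ± 1.22), Myb (21.5 ± 1.28) and Bcl11a (8.24 ± 0.942) formed the low end without overlap. In treated marrow Zfpm1 was still first (92.5 ± 36.4 CPM per kb) and Klf1 was the fourth (53.6 ± 34.9) after Nfe2 (65.7 ± 7.88) and Lmo2 (57.5 ± 15.9), but from Zfpm1 down to Ldb1 every neighbouring pair overlapped, so that this order is not resolved by the mice.

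**Figure D4:**
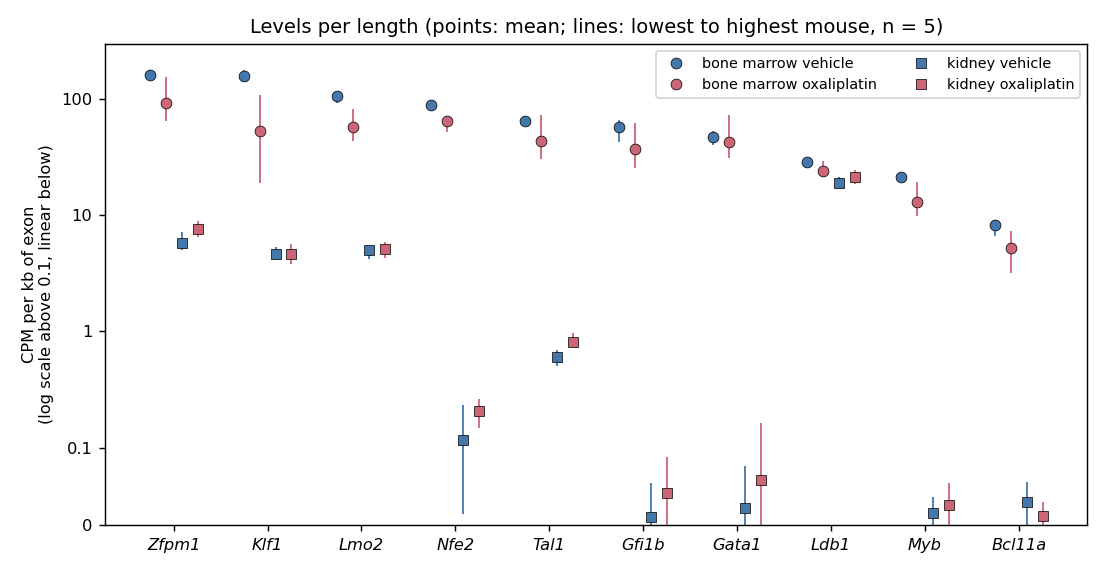
Level per exonic length in CPM per kb (vertical axis, logarithmic above 0.1 and linear below) for each factor in the 4 groups, with marrow as circles, kidney as squares, vehicle in blue and oxaliplatin in red. Points are means of 5 mice and lines run from the lowest to the highest mouse. Ldb1 is at a similar height in both tissues (28.9 and 19.1 CPM per kb with vehicle), while Gata1, Gfi1b, Myb and Bcl11a are near 0 in kidney.

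Kidney served as the comparison tissue. Gata1, Gfi1b, Bcl11a and Myb had between 0 and 16 reads in each kidney library and were left out by the expression filter. By edgeR and by DESeq2, 0 of the 6 factors tested changed there, against 11.5% of 19293 tested kidney genes (3.81% lower and 7.68% higher), and 1 of 6 had an edgeR adjusted p below 0.05, against 29.4% (3 of 6 at an unadjusted p below 0.05). The gene past the adjusted threshold was Zfpm1, with 21.7, 16.2, 15.4, 17.3 and 16.6 CPM in the vehicle mice and 27.5, 23.8, 21.4, 20.2 and 23.5 CPM in the treated mice. The lowest treated mice lay below vehicle mouse 1 and above the other vehicle mice, and the log2 fold change was 0.41 (SE 0.107, edgeR adjusted p = 0.00638).

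Tal1 in kidney measured 2.61, 2.13, 2.38, 2.50 and 1.94 CPM in the vehicle mice and 3.02, 3.20, 2.80, 3.72 and 2.76 CPM in the treated mice. Its groups did not overlap, as for 20.7% of tested kidney genes, and its log2 fold change was 0.42 (edgeR adjusted p = 0.0642). Klf1 was present at 6.19 ± 0.680 CPM with vehicle and 6.21 ± 0.880 CPM with oxaliplatin (SD, n = 5, log2 fold change 0.002), although Gata1 reached at most 10 reads in any kidney library. Lmo2 measured 9.56 and 9.78 CPM (log2 fold change 0.03, edgeR adjusted p = 0.864) and Ldb1 76.3 and 85.6 CPM (0.17, edgeR adjusted p = 0.107). Nfe2 had 1 to 14 reads in vehicle and 13 to 19 reads in treated kidney (log2 fold change 0.85, edgeR adjusted p = 0.220). It passed the expression filter in kidney only through the treated group, where it was higher.

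The tissues differed in their response. The tissue by treatment interaction was tested in a joint edgeR fit of all 20 libraries over 24321 genes. Of these genes 30.1% had an adjusted p below 0.05, and 13.1% had it with the change lower in marrow than in kidney. Of the 10 factors, 6 had an adjusted p below 0.05. All 6 were lower in marrow relative to kidney: Klf1 by a log2 difference of -1.57 (SE 0.435, edgeR adjusted p = 0.00949), Nfe2 by -1.29 (0.0172), Zfpm1 by -1.23 (5.97e-04), Tal1 by -0.97 (0.00869), Lmo2 by -0.92 (0.00121) and Ldb1 by -0.42 (0.0128), with edgeR adjusted p in brackets. The differences of Gata1 (-1.45), Gfi1b (-2.53), Myb (-1.37) and Bcl11a (0.67) rest on the few kidney reads and did not pass (edgeR adjusted p from 0.162 to 0.526). The difference of Nfe2 also rests on few kidney reads, 1 to 14 with vehicle. In the joint fit Nfe2 passed the filter through its marrow reads, as did Gata1, Gfi1b, Myb and Bcl11a. With at least 10 reads required in every library, Nfe2 was not tested and 5 of 5 factors passed. The share of all genes passing under that filter was not computed. For Myb the adjusted p was 0.0444 without treated kidney library 5. RNA of the tissues was extracted in different ways according to the labels, and the test compares responses within each tissue.

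**Figure D5:**
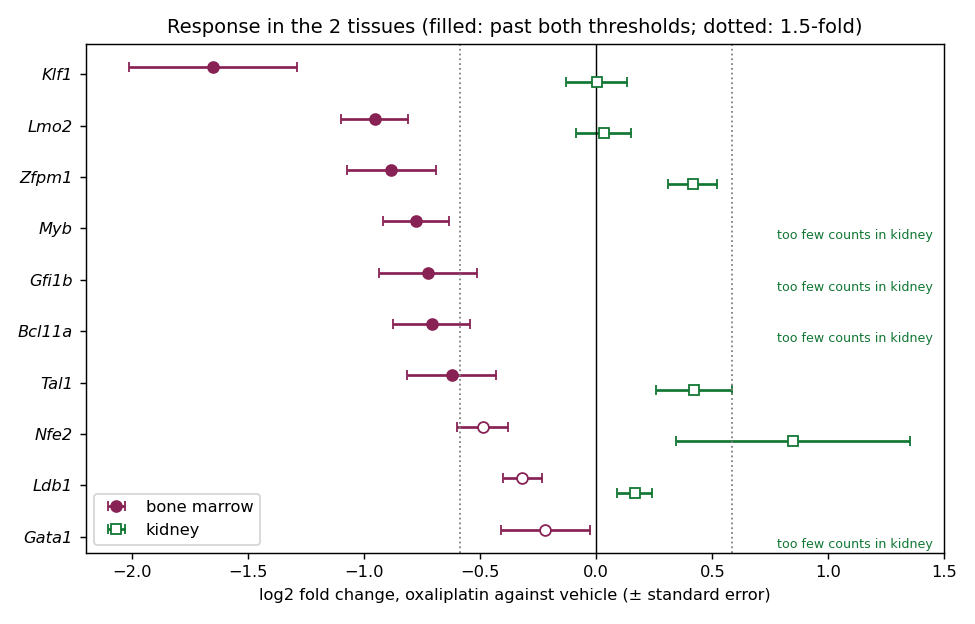
Log2 fold change of oxaliplatin against vehicle with its standard error (horizontal axis) for each factor in bone marrow (circles) and kidney (squares), filled where both thresholds were passed, with dotted lines at 1.5-fold. All 10 marrow points lie left of 0, 7 of them filled, and the 6 kidney points lie at or right of 0 and are open.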

How the data were processed

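The deposited values were raw counts per gene for each library. According to the study's methods the authors aligned reads with STAR to Ensembl release 101 of the mouse genome and counted uniquely assigned reads in Partek Flow, and the labels name STAR, featureCounts and Salmon. The library chemistry is also described in differing ways, and strand handling is not given in the sources used here. After 287 repeated lines and 1 line with a missing value were removed, 55486 genes remained. edgeR 4.0.16 (filterByExpr with minimum count 10, TMM, robust quasi-likelihood test, treatment only) was fitted to each tissue, with Benjamini-Hochberg adjustment over all tested genes. The standard error is the absolute log2 fold change over the square root of F. In place of the study's DESeq2, which is an alternative here (DESeq2 1.42.0), edgeR was the main tool. The fits were tested on simulated data with the same dispersion for all genes and both treatments. That does not cover the wider spread among treated mice seen for genes such as Klf1. Log2 CPM used a prior count of 2, and CPM were TMM-scaled. Positions and lengths are from GENCODE M21 (GRCm38), promoters from RefSeq. The 10 factors, the gene lists and the contrasts were chosen with earlier results of these data known. Named genes were the 10 factors, a fixed set of partners, at most 4 per other list by size of change, genes used in a contrast, and the 5 closest by correlation to 4 factors. Some genes that this rule names are not reported here. Other genes of the regulator list, the list exceptions Cited4 and Cd36, and Epor were added after their values were seen. Nothing in the sources says whether libraries came from separate extractions beyond the words biological replicate, so p-values measure the spread between these libraries. Counting intervals do not cover amplification. Alternatives were other scalings, filters, tests, a Y-linked covariate, a replicate block and the omission of single libraries.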

Additional observations from a re-analysis of the deposited data

Results flagged for a closer look

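For 2 factors the marrow of oxaliplatin mouse 3 stood far from the other treated mice, Gata1 at 191 CPM (gap over range 0.806) and Ldb1 at 146 CPM (gap over range 0.765), by Dixon's test with a limit of 0.710 for 5 samples. In all, 32 groups of a factor, tissue and treatment were checked and 2 passed, and chance alone passes about 1 group in 20. The response in marrow differed from that in kidney by an interaction test for 6 factors, with log2 differences of -1.57 for Klf1, -0.97 for Tal1, -1.29 for Nfe2, -0.92 for Lmo2, -1.23 for Zfpm1 and -0.42 for Ldb1. That of Nfe2 rests on 1 to 14 reads in vehicle kidney.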

How the results depend on the processing

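All 10 factors kept a negative log2 fold change in marrow under every alternative. The number past both thresholds, 7, was 4 with library size alone (24.2% of all tested genes), 2 in a test against a change of 1.5-fold (Klf1 and Lmo2, 12.2%), and 1 with a fold beyond 2 (Klf1, 14.4%). It was 5 to 7 when 1 mouse was left out, beside 20.8% to 25.3% of all tested genes. Library size alone moved the median of all tested marrow genes from -0.04 to 0.11, and the share of changed genes that were higher from 49.6% to 63.4% (kidney 66.8% to 82.7%). Gata1 was then -0.07. Tal1 lost its call in 12 of 20 alternatives, Gfi1b in 5, Bcl11a in 4, and Zfpm1 and Myb in 1 each. A Y-linked covariate gave 5 (25.7%), with Nfe2 gained (-0.61), Tal1, Gfi1b and Bcl11a lost (-0.43, -0.50 and -0.56), and Gata1 at -0.03. In kidney, 1 factor passed on adjusted p alone. Klf1 in kidney, near 0, was -0.0044 with median ratio scaling, -0.0055 with DESeq2 and -0.068 to 0.075 without 1 mouse, and Lmo2 was -0.033 to 0.10 without 1 mouse. Of the 12 ratios, 8 passed, and 8 to 10 did without 1 mouse (10 without treated mouse 3). With a difference of medians 0 passed, but there the lowest possible exact permutation p is higher, so a pass was hardly possible. No ratio changed direction in any alternative.

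The replicate block, using the label number, gave 7 factors in marrow (22.2% of all tested genes) and 0 in kidney (10.5%, Klf1 at -0.00068). It also gave 6 interactions, for which the share of all genes was not computed. For the ratios an exact sign-flip test over 5 numbered pairs cannot go below p = 0.0625, so 0 passed. Same-numbered marrow libraries correlated at -0.118 to 0.228 in their deviations from group means, so the numbers are treated as names. Depth limits Gata1, Gfi1b, Bcl11a and Myb in kidney, where 3 reads are 0.0900 to 0.130 CPM, and no change there was detectable at this depth.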
